A study of Mus musculus with 16 samples.

Results

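The genes described here encode the enzymes of the conjugating step of drug, hormone and bile acid metabolism: the glutathione transferases (GST), the UDP-glucuronosyltransferases (UGT) and the cytosolic sulfotransferases (SULT). They were taken as the protein-coding rows of the count table whose gene ID, with its version dropped, maps to a symbol that begins with Gst, a class letter (a, k, m, o, p, t or z) and a digit, with Ugt1a, Ugt2a, Ugt2b or Ugt3a, or with Sult and a digit. The rule used no measured value, and it gave 64 of 55385 genes, of which 22 were GST, 21 UGT and 21 SULT genes. A further 7 rows matched by symbol but are pseudogenes, and these were left out.

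Short-read RNA-Seq was run on liver, kidney, lung, heart, spleen, muscle and both white and brown adipose tissue of male C57BL/6 mice, acquired at 12 weeks of age. The fed mice had free access to water and standard chow, and the fasting mice were fasted for 24 h. Equal parts of frozen tissue from 3 mice went into each pool, so that each tissue and treatment is 1 library (8 tissues, 16 libraries) and no value carries the spread between mice. The muscle and the white adipose depot are not named in the sources used here. In such bulk tissue, fewer cells of a type and less RNA per cell cannot be told apart.

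Conjugation makes lipophilic compounds soluble and ready for export. GST enzymes couple the tripeptide glutathione to electrophiles, UGT enzymes of the endoplasmic reticulum transfer glucuronic acid from UDP-glucuronate to hydroxyl, carboxyl and amine groups, and SULT enzymes transfer sulfate from the donor PAPS to phenols, steroids and bile acids. The liver is the main site of all these reactions, the kidney and the airways hold their own sets, and several genes of each family are induced through the receptors CAR, PXR, PPAR alpha and AHR or the transcription factor NRF2.

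Library totals lay between 14245178 and 36069968 counts, and levels are given as CPM, the usual scaling of a count to its library total. In the liver libraries Alb (albumin) stood at 63761 CPM fed and 52136 CPM fasting, in the kidney libraries the proximal tubule gene Kap at 17943 and 16230, and in the lung libraries Scgb1a1 of club cells at 13119 and 13985, as their labels say. Genes of other organs were also counted. A list of 10 genes of pancreatic acinar cells summed to 600 CPM in the fed and 11.8 CPM in the fasting spleen library. In the liver libraries the same list summed to 120 and 263 CPM. Kap stood at 38.7 and 40.6 CPM in the heart libraries and Scgb1a1 at 29.1 and 40.8 CPM in the brown adipose libraries. The source of these counts was not tested. Genes listed for motile cilia and absorptive epithelium summed to far more in the fasting than in the fed white adipose library. These lists were drawn up after the values were seen, and their sums stand beside the white adipose results below.

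Of the 64 genes, 49 reached 1 CPM in at least 1 library and 14 did so in all 16, namely 13 GST genes and Sult1a1. The GST family was the most widely spread, with 21 of 22 genes at 1 CPM in some library. The UGT family had 19 such genes of 21, and each was highest in liver (13 genes) or in kidney (6 genes). The SULT family had only 9 of 21. Sult2a3, Sult2a4, Sult2a5, Sult2a6, Sult3a2, Ugt2a1 and Ugt2a2 had no count in any library, which allows at most 0.0832 CPM in the deepest library and 0.211 CPM in the shallowest (3 counts, counting error only). Sult2a1, Sult2a2, Sult3a1 and Sult1c1 had 1 or 2 counts at most in any library. Sult2a genes encode the sulfotransferases of hydroxysteroids and bile acids, and Ugt2a1 and Ugt2a2 overlap each other and Gm43638, with 1.17% and 5.51% of their exon length to themselves, so that reads there could hardly be assigned to either. The other members under 1 CPM were Gstt4, Sult4a1, Sult6b1 and Sult6b2, with 8, 8, 3 and 4 counts at most.

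**Figure D1:**
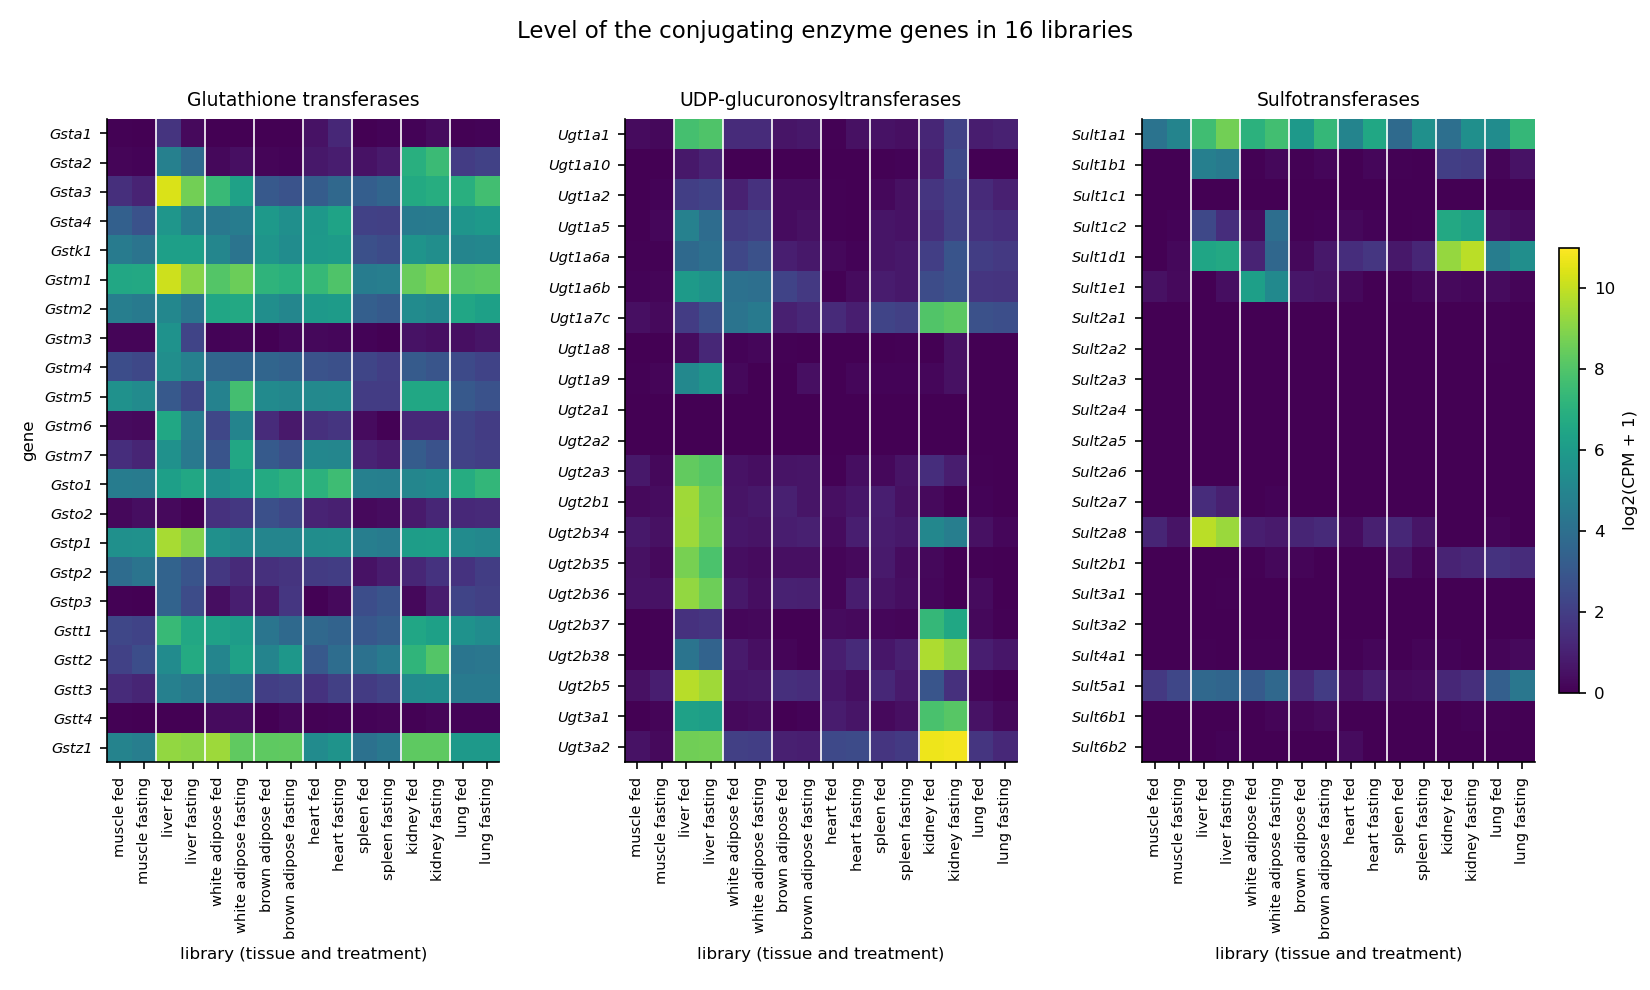
Heat map of log2(CPM + 1) for the 64 genes (rows, in 3 panels by family) in the 16 libraries (columns, fed and fasting side by side for each tissue, white lines between tissues). GST genes are filled in most columns, UGT genes almost only in the liver and kidney columns, and 12 SULT genes stay below 1 CPM throughout.

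Most of the members lie in clusters. The 9 Ugt1a genes occupy chr1:88055388-88220002, the 7 Gstm genes chr3:107895821-108044894, and 10 Ugt2 genes together with Sult1b1, Sult1d1 and Sult1e1 chr5:86889767-87591594 (GRCm38, gene bounds from GENCODE). The Ugt1a genes have a first exon each and share their remaining exons, and only between 39.4% and 49.7% of the exon length of a Ugt1a gene belongs to that gene alone. How the authors' counting assigned reads in the shared exons is not given in the sources used here, so levels of Ugt1a genes are uncertain. Near-identical copies make others uncertain too: of all 100-base windows in their transcripts, Gsta1 shared 80.6%, Gstp2 46.9%, Gsta2 28.4%, Gstp1 25.1%, Ugt2b5 24.7%, Ugt2b38 24.2% and Gstm3 13.8% with another gene. Sult1a1 and Gstt2 shared 1.75% and 0%.

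To ask which tissue each gene belongs to, each tissue was set against the mean of the other 7 in a single model of tissue and treatment over all 16 libraries (edgeR quasi-likelihood test, Benjamini-Hochberg adjusted p under 0.05 and a log2 difference above 2), in which the fed and the fasting library of a tissue stand as its samples. The filter on low counts passed 23580 genes and 48 of the 64 members. Liver stood apart with 40 of these 48, where 9.48% of all genes tested were higher in liver. By family these were 16 of 21 GST, 17 of 18 UGT and 7 of 9 SULT genes. Kidney followed with 17 members (all genes 11.2%), of which 9 were UGT genes. White adipose tissue had 6 (all genes 9.14%), or 4 without its fasting library and 12 with scaling on library totals alone, lung 3 (13.8%), muscle 2 (7.71%), heart 2 (7.45%), brown adipose tissue 1 (5.48%) and spleen 1 (14.2%). Liver and kidney compared directly gave 26 members higher in liver (all genes 7.3%) and 9 higher in kidney (all genes 12.6%), or 5 without the fasting liver library.

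Per kilobase of exon, which allows genes to be compared, Gstm1 led the GST family in every tissue by the mean of its libraries, from 16.6 CPM per kb in spleen to 561 CPM per kb in liver. Gstm1 is a class mu enzyme with broad activity towards epoxides and quinones. In liver it was followed by Gstp1 (407 CPM per kb), the class pi enzyme, and Gsta3 (200.03 CPM per kb), a class alpha enzyme that conjugates the aflatoxin epoxide in mice. By the same mean the next genes after Gstm1 differed by tissue. Gsto1, which reduces dehydroascorbate and methylated arsenic, came next in heart (80.1 CPM per kb) and lung (65.2). Gstz1 came next in both adipose tissues (97.4 in white and 62.0 in brown), Gsta2 in kidney (127) and Gstm5 in muscle (32.8). In the fasting libraries alone Gstz1 stood below Gstm5 in white adipose tissue (62.2 against 164) and below Gsto1 in brown (62.8 against 66.8). Gstz1, the maleylacetoacetate isomerase of tyrosine breakdown, stood at 675 CPM in fed white adipose tissue, above its 599.8 CPM in fed liver. By the mean of fed and fasting libraries Gstz1 was the higher in liver, at 571 CPM against 496 CPM in white adipose tissue.

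Some GST genes also stood apart in other tissues. Gsto2 was higher in brown adipose tissue than in the mean of the others by 2.96 on the log2 scale (SE 0.28, edgeR quasi-likelihood test, adjusted p = 9.04e-06), although at only 5.42 CPM fed and 4.28 CPM fasting. Gstp2 was higher in muscle (log2 difference 3.84, SE 0.22), at 13.9 and 17.6 CPM, and also in liver (log2 difference 2.52, SE 0.24), at 10.3 and 6.29 CPM. Gstm5 was called higher in muscle, kidney and white adipose tissue. It stood at 45.7 and 38.1 CPM in muscle, 91.7 and 92.9 CPM in kidney and 28.0 and 210.2 CPM in white adipose tissue. In liver Gstm5 stood at 7.47 and 3.93 CPM. For Gstm2 and Gsta4 the liver difference did not pass the threshold (log2 difference 0.13 for Gstm2 and 1.55 for Gsta4).

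UGT levels divided between liver and kidney by gene. The leading genes of liver were Ugt2b5 (892 CPM fed and 679.7 CPM fasting), Ugt2b1 (687 and 351 CPM), Ugt2b34 (663 and 377 CPM) and Ugt2b36 (603 and 378 CPM), all enzymes that act mainly on steroids and phenols. Ugt1a1, the only UGT that conjugates bilirubin to any extent, stood at 216 CPM fed and 249 CPM fasting in liver and at 1.25 and 3.49 CPM in kidney. Kidney was led by Ugt3a2, at 1692 CPM fed and 1769.7 CPM fasting against 390.2 and 409 CPM in liver. UGT3A enzymes are known to use UDP-glucose or UDP-N-acetylglucosamine rather than UDP-glucuronate. The difference of Ugt3a2 between liver and kidney did not pass the threshold (log2 difference -1.39, SE 0.21). Ugt2b38 (809 and 553 CPM), Ugt2b37 (159.8 and 94.0 CPM) and Ugt1a7c (257 and 303 CPM) were also genes of the kidney. Their log2 differences, liver against kidney, were -4.89 for Ugt2b38, -5.14 for Ugt2b37 and -5.39 for Ugt1a7c.

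Per kilobase the order in kidney was Ugt3a2 (558 CPM per kb), Ugt2b38 (360.02) and Ugt3a1 (95.6), and in liver Ugt2b5 (423), Ugt2b36 (238) and Ugt2b1 (202). When the exon length that a Ugt1a gene shares with its neighbours was left out, Ugt1a1 in liver went from 104 to 254 CPM per kb and Ugt1a7c in kidney from 66.3 to 146 CPM per kb, which would put both among the leading 3. In the other 6 tissues all 21 UGT genes together summed to between 3.62 CPM (fasting muscle) and 56.5 CPM (fasting white adipose tissue), beside 4438 CPM in fed liver and 3203 CPM in fed kidney. In both libraries of white adipose tissue the leading UGT gene per kilobase was Ugt1a6b (6.90 and 6.44 CPM per kb), an enzyme of small phenols.

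**Figure D2:**
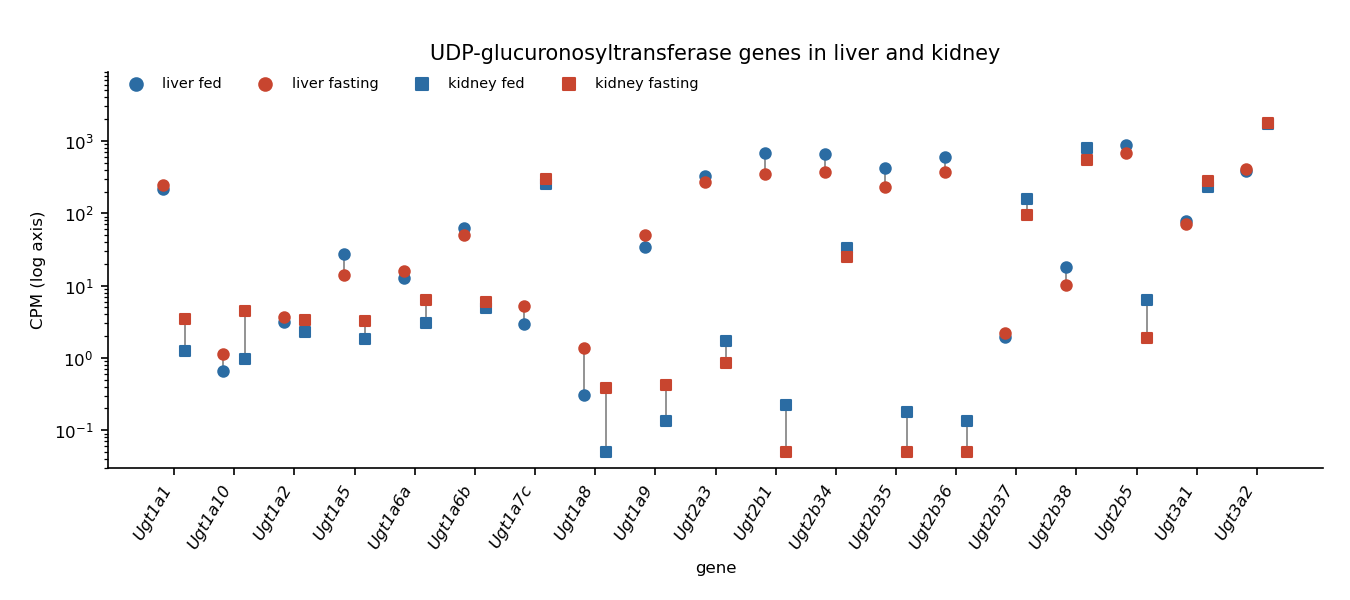
Levels (CPM, log axis) of the 19 UGT genes that reached 1 CPM, in the liver (circles) and kidney (squares) libraries, fed in blue and fasting in red; values under 0.05 CPM are drawn at 0.05. Ugt2b1, Ugt2b35 and Ugt2b36 were at 232 CPM or more in liver and at 0.223 CPM or less in kidney, while Ugt2b37, Ugt2b38, Ugt1a7c and both Ugt3a genes were higher in kidney.

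By mean CPM per kb the leading SULT gene was Sult2a8 in liver, Sult1d1 in kidney and Sult1a1 in the other 6 tissues. Sult2a8, a bile acid sulfotransferase of mouse liver, had 936 CPM in fed and 646 CPM in fasting liver and no count in either kidney library, and in the other tissues it did not pass 1.47 CPM. Sult1d1, which acts on catecholamines and other amines and phenols, had 618 and 931 CPM in kidney, 87.9 and 98.8 CPM in liver and 24.6 and 41.8 CPM in lung. Sult1c2 was also highest in kidney (98.1 and 76.5 CPM). Sult1e1, the oestrogen sulfotransferase, stood in white adipose tissue at 72.8 CPM fed and 36.4 CPM fasting, and at 0.602 CPM or less in every library of another tissue. The log2 difference of Sult1e1 from the mean of the other tissues was 7.56 (SE 0.37, edgeR quasi-likelihood test, adjusted p = 5.73e-08). Sult1d1, Sult5a1 and Sult2b1 were also called higher in lung, but Sult1d1 differed more in kidney and liver and Sult2b1 nearly as much in kidney. Sult5a1 differed more in liver (12.2 and 11.1 CPM) in the fit, although its mean CPM was higher in lung (14.4) than in liver (11.6). Sult2b1 is the cholesterol sulfotransferase of epithelia, in lung at only 2.03 and 1.61 CPM.

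Short sequences in the promoters were searched because these families are named targets of HNF1, NRF2 and AHR. RefSeq windows of 300 bases (250 before to 50 after a start, GRCm38.p6) were given for 56 of the 64 members, 67 windows in all. The letters GTTAATNAT, the first 9 bases of the HNF1 palindrome, read on both strands, were in 8 of the 67 windows (11.9%) and in 0.801% of all 32851 windows. The core of the antioxidant response element that NRF2 binds, TGACNNNGC, was in 3 windows (4.48%, all windows 12.4%), and the AHR core GCGTG in 13 windows (19.4%, all windows 32.4%). A match is a run of letters and not a bound site. The windows are also not independent, since neighbouring genes can be copies of each other. The flanks of Sult2a3, Sult2a4, Sult2a5 and Sult2a6 are nearly alike, as are those of Ugt1a9 and Ugt1a10 after the match. The share of windows is therefore not a share of separate promoters. The 8 HNF1 matches are printed 5′ to 3′ on the strand of the gene with 20 bases on each side and the match in capitals, since they fall on both abundant and silent members.
Ugt1a1 (chr1:88211895-88211943, plus strand): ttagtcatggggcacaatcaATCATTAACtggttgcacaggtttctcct
Ugt1a9 (chr1:88070665-88070713, plus strand): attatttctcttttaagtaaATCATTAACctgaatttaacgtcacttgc
Ugt1a10 (chr1:88055317-88055365, plus strand): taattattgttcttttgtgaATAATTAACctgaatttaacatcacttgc
Sult1d1 (chr5:87569057-87569105, minus strand): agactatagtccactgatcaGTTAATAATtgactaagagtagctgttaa
Sult2a3 (chr7:14123071-14123119, minus strand): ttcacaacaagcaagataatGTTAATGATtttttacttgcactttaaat
Sult2a4 (chr7:13989667-13989715, minus strand): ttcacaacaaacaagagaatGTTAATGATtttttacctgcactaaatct
Sult2a5 (chr7:13623919-13623967, plus strand): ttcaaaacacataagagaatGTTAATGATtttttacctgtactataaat
Sult2a6 (chr7:14254913-14254961, minus strand): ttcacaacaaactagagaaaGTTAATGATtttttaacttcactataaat

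The same letters thus stood before Ugt1a1, at 216 CPM in fed liver, before Sult1d1, at 618 CPM in fed kidney, and before the Sult2a genes with no count in any library. The 3 windows with the antioxidant response core belong to Gsta3, Gstm5 and Gstm7, and in Gstm5 the AHR core lies within the match on the other strand. Between the fasting and fed libraries described below, these genes were called down in liver, as were 15 of 21 GST genes. In white adipose tissue Gsta3 was called down and Gstm5 and Gstm7 up, where 4 of 21 GST genes were up and 3 down.
Gsta3 (chr1:21240444-21240492, plus strand): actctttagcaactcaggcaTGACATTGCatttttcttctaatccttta
Gstm5 (chr3:107895792-107895840, plus strand): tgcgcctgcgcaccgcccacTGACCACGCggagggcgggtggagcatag
Gstm7 (chr3:107931715-107931763, minus strand): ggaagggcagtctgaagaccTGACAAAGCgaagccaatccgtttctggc

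The response to fasting was first sought across tissues, with tissue as a block and treatment tested in the same model (7 residual degrees of freedom). Since the same mice gave all 8 tissues, these are not independent animals and the p-values measure the spread between tissues. Of the 48 members tested, 2 were higher in fasting, Sult1a1 and Gstt2, and none was lower, where 1.03% of all genes tested were higher and 0.84% lower. At an unadjusted p under 0.05 there were 9 of the 48 members and 4396 of all 23580 genes. The DESeq2 Wald test called 5 of 42 members higher and 1 lower, where it called 844 of 16234 genes higher and 988 lower.

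Sult1a1 (chr7:126672865-126676432, minus strand) encodes the main phenol sulfotransferase, which acts on dietary phenols, paracetamol and thyroid hormones. In fed libraries Sult1a1 stood at 196 CPM in liver, 134 in white adipose, 58.5 in brown adipose, 39.7 in lung, 30.1 in heart, 17.0 in muscle, 15.2 in kidney and 13.1 in spleen. In fasting libraries Sult1a1 stood at 398 CPM in liver, 201 in white adipose, 160.9 in lung, 160.1 in brown adipose, 93.7 in heart, 44.8 in spleen, 43.1 in kidney and 29.9 in muscle. The fasting library was the higher in 8 of 8 tissues, and the log2 fold change across tissues was 1.39 (SE 0.16, edgeR quasi-likelihood test, Benjamini-Hochberg adjusted p = 0.00428). The Sult1a1 ratio of fasting to fed was highest in lung, 4.05 (95% counting interval 3.81 to 4.32), then 3.43 in spleen, 3.11 in heart, 2.83 in kidney, 2.74 in brown adipose, 2.03 in liver, 1.75 in muscle and lowest in white adipose tissue (interval 1.43 to 1.57). Per kilobase, Sult1a1 made up between 51.4% and 98.2% of the summed SULT level in 7 of the 8 fasting tissues, kidney with its Sult1d1 being the exception. By CPM Sult2a8 stood above it in liver. The promoter of Sult1a1 held none of the 3 motifs, and it is printed whole because this gene moved in every tissue (chr7:126676369-126676668, minus strand, 250 bases before to 50 after the start).
Sult1a1: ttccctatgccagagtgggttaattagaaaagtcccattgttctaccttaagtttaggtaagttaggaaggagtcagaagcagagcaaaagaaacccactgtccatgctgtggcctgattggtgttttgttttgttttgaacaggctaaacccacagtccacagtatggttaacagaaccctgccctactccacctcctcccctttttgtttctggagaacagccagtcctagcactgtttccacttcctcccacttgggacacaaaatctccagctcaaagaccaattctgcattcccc

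Gstt2 (chr10:75831114-75837424, minus strand) encodes a class theta enzyme that acts on sulfate esters and lipid hydroperoxides. In fed libraries Gstt2 stood at 144 CPM in kidney, 39.0 in liver, 31.4 in white adipose, 29.8 in brown adipose, 18.3 in lung, 16.4 in spleen, 7.38 in heart and 3.32 in muscle. In fasting libraries Gstt2 stood at 269 CPM in kidney, 104 in liver, 78.4 in white adipose, 55.3 in brown adipose, 22.5 in spleen, 19.3 in lung, 14.5 in heart and 5.01 in muscle. It was again the fasting library that was the higher in 8 of 8 tissues, but the lung values were close (log2 fold change 0.08) and liver differed most (1.42). Across tissues the log2 fold change was 0.88 (SE 0.14, edgeR quasi-likelihood test, adjusted p = 0.0147), and with each tissue left out in turn the adjusted p lay between 0.0108 and 0.0503, the highest being without brown adipose tissue. The neighbouring theta genes went their own way: Gstt1 was not called across tissues (log2 fold change -0.26, SE 0.10), nor was Gstt3 (0.06, SE 0.11).

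**Figure D3:**
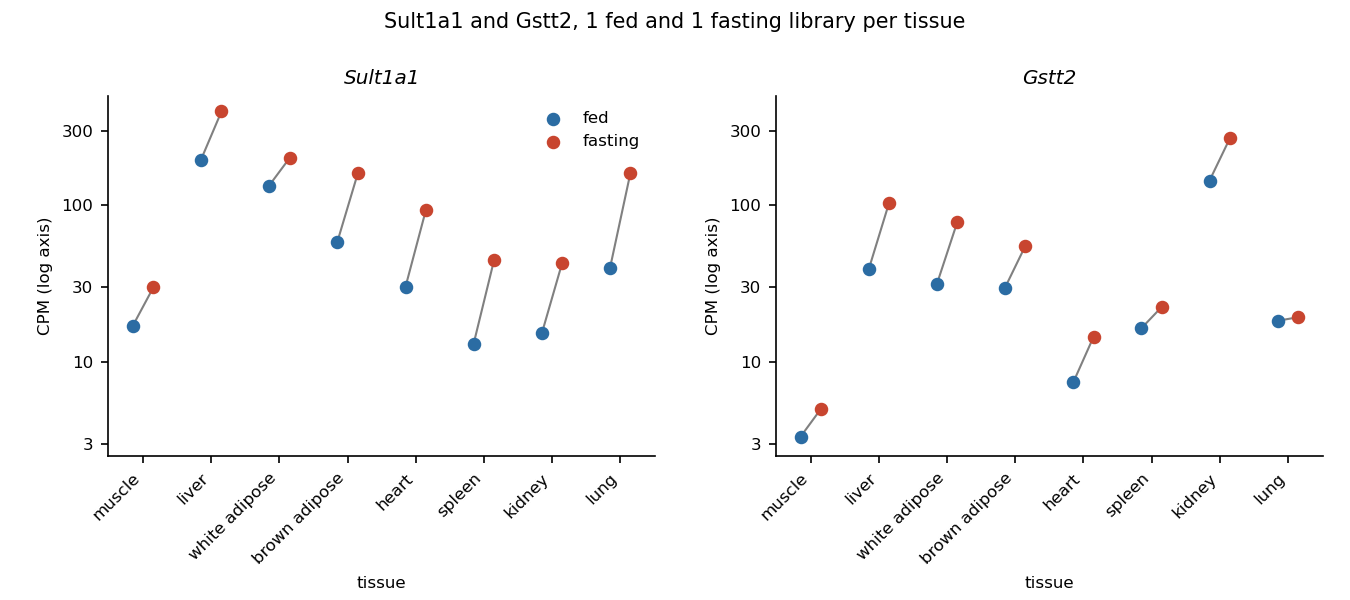
CPM (log axis) of Sult1a1 (left) and Gstt2 (right) in each tissue, with the fed library in blue, the fasting library in red and a line joining the pair. In 8 of 8 tissues the fasting point lies above the fed point for both genes, and the Gstt2 pair in lung (18.3 and 19.3 CPM) is nearly level.

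Closest outside the threshold were Sult5a1 (log2 fold change 0.66, SE 0.16, edgeR quasi-likelihood test, adjusted p = 0.0558), Gsto1 (0.33, SE 0.08, adjusted p = 0.0608) and Sult1d1 (1.05, SE 0.30, adjusted p = 0.0956). The nearest on the falling side were Ugt2b35 (log2 fold change -0.77, SE 0.23, edgeR quasi-likelihood test, adjusted p = 0.103) and Gstm4 (-0.25, SE 0.08, adjusted p = 0.127), the latter lower in fasting in 8 of 8 tissues. Sult5a1, an enzyme whose substrates are little known, went from 9.08 to 19.8 CPM in lung and from 7.56 to 12.2 CPM in white adipose tissue. Leaving out liver gave it an adjusted p of 0.0401, leaving out spleen gave Gsto1 0.0485, and leaving out white adipose tissue gave Sult1d1 0.0493.

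Within a tissue there is 1 fed and 1 fasting library, so a difference has no replicate check. A member was called where Fisher's exact test (two-sided) of the counts gave p under 0.01 and the log2 ratio of CPM, with 0.01 CPM added, passed 0.5 in size, and such a call compares libraries and not conditions. Intervals given with a ratio are 95% exact intervals that cover counting error only.

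Liver gave the most calls: of 51 members with a count, 6 were up (all genes 4.46%) and 23 were down (all genes 9.52%). Most of the falls were of GST genes, with 15 of 21 GST, 6 of 19 UGT and 2 of 11 SULT genes. The median log2 fold change of the members at 1 CPM was -0.56 over all families and -0.88 for GST, -0.15 for UGT and -0.20 for SULT genes, beside -0.13 for all genes at 1 CPM. Summed levels went from 4588 to 2496 CPM for GST, from 4438 to 3170 CPM for UGT and from 1264 to 1180 CPM for SULT genes. The SULT sum had no firm direction, since it was 466 and 514 CPM per kb and its log2 ratio by CPM went from -0.10 to 0.02 with TMM factors. A list of 10 pancreatic acinar genes summed to 119.9 CPM in the fed and 263 CPM in the fasting liver library, and its part in the liver calls was not tested.

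The GST falls in liver covered the alpha, mu, pi and theta classes. Gstm3, a mu class gene, fell furthest, from 48.1 CPM fed to 3.85 CPM fasting, a ratio of 0.0799 (interval 0.0642 to 0.0985). Gsta1 went from 49 counts to 5, but shares most of its sequence with other genes. Gstm6 fell from 91.5 to 24.4 CPM (ratio 0.267, interval 0.243 to 0.292). Gsta3, which was the most abundant member of all in fed liver by CPM, fell from 1338 to 400.1 CPM (ratio 0.299, interval 0.292 to 0.306). Gstm1 fell from 1141 to 511 CPM (ratio 0.448) and Gstp1 from 757 to 503 CPM (ratio 0.665), although the call of Gstp1 was lost with TMM factors (log2 fold change -0.46). All 7 Gstm genes and all 4 Gsta genes were called down, whereas Gstz1 (599.8 and 542 CPM), Gstk1 (72.5 and 74.1 CPM), a peroxisomal and mitochondrial enzyme, Gsto1 (74.1 and 97.1 CPM) and Gstt3 were not called, and Gstt2 was the only GST gene called up.

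The UGT calls in liver fell in both clusters. In the Ugt2 cluster, Ugt2b1 fell from 687 to 351 CPM (ratio 0.512, interval 0.498 to 0.525), Ugt2b35 from 422 to 232 CPM (ratio 0.550), Ugt2b34 from 663 to 377 CPM (ratio 0.569) and Ugt2b36 from 603 to 378 CPM (ratio 0.628). Ugt2b5 (892 and 679.7 CPM) and Ugt2a3 (323 and 269.9 CPM) were lower in fasting but within the threshold. In the Ugt1a cluster, Ugt1a9, which conjugates bulky phenols and fatty acids, rose from 34.3 to 49.4 CPM (ratio 1.44, interval 1.31 to 1.58), Ugt1a7c from 2.91 to 5.17 CPM and Ugt1a8 from 7 to 34 counts. Ugt1a5 of the same cluster fell from 27.2 to 13.9 CPM (ratio 0.513, interval 0.449 to 0.586). Ugt1a1 was not called. Neither Ugt3a gene was called.

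Among SULT genes of liver, Sult2a8 fell from 936 to 646 CPM (ratio 0.690, interval 0.676 to 0.704) while Sult1a1 rose from 196 to 398 CPM. By CPM Sult2a8 led in both libraries. Per kilobase the leading SULT gene was Sult2a8 in the fed library (61.1% of the summed CPM per kb) and Sult1a1 in the fasting library (51.4%). Sult1c2 fell from 4.21 to 1.72 CPM. Sult1e1 went from 0 to 8 counts. Sult1d1, Sult1b1, an enzyme of thyroid hormones, and Sult5a1 were not called. Scaling by TMM factors moved the median log2 fold change of all genes in liver from -0.13 to -0.003. Then 21 members were down and 7 up, Sult2a8 (log2 fold change -0.41) and Gstp1 no longer passing and Gsto1 (0.51) passing.

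**Figure D4:**
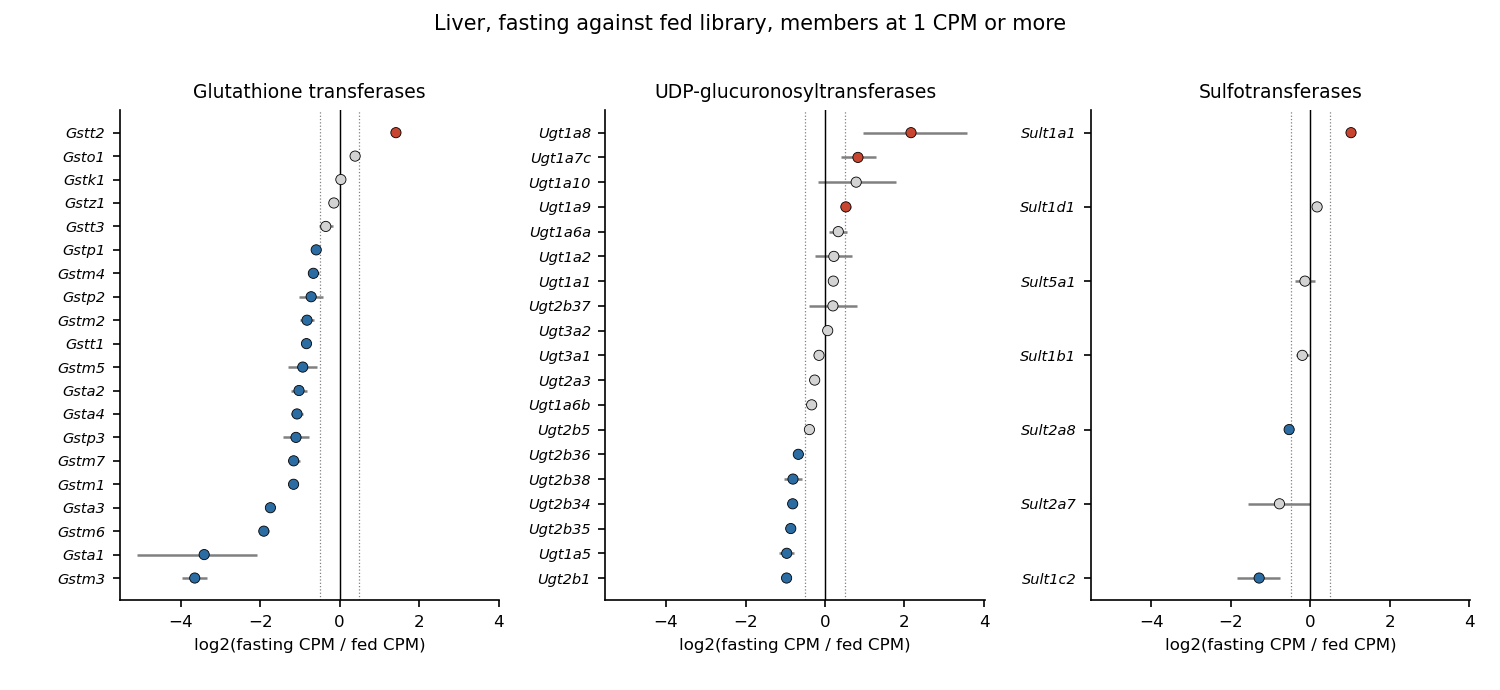
Log2 ratio of fasting to fed CPM in liver for the 46 members at 1 CPM or more in either library, by family, with 95% exact counting intervals as bars. Members called up are red, called down blue and not called grey, dotted lines mark 0.5 and -0.5, and 15 of 20 GST genes lie to the left as called falls.

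Genes around the conjugating step were examined in liver from lists drawn up by function, with the same call rule, by which 4.46% of all genes were up and 9.52% down. Of 16 genes of glutathione synthesis and recycling, 5 rose and 4 fell. Gclc, the catalytic subunit of the rate-limiting glutamate-cysteine ligase, fell from 529.9 to 203 CPM, and its modifier subunit Gclm from 251 to 172 CPM. Cth, which makes cysteine from cystathionine, rose from 317 to 821 CPM, and Oplah, the 5-oxoprolinase, from 159 to 336 CPM. Ggt1, Ggt5 and Dpep1, which degrade glutathione outside the cell, rose at levels under 5 CPM, and Chac1 and Chac2, which degrade it inside the cell, fell.

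Of 5 genes listed under UDP-glucuronate supply, 3 fell. Ugdh, which oxidises UDP-glucose, fell from 159.8 to 95.6 CPM, and the transporters Slc35d1 from 137 to 77.3 CPM and Slc35d2 from 51.4 to 31.7 CPM. What the listed transporters carry was not examined. Slc35b1, a transporter of the endoplasmic reticulum on the same list, was lower in fasting across tissues (log2 fold change -0.34, SE 0.07, edgeR quasi-likelihood test, adjusted p = 0.0459). Of 11 genes of PAPS supply and sulfate uptake, Papss1, a PAPS synthase, fell from 15.9 to 6.65 CPM and the sulfate transporter Slc26a2 from 14.4 to 6.09 CPM, while the main liver synthase Papss2 was not called (244 and 191 CPM). None of 7 exporters of conjugates was called, Abcc2, the canalicular exporter, at 935 and 856 CPM and Abcc3, the exporter towards blood, at 472 and 642 CPM. Among 6 hydrolases with a count, Arsb fell, and among 7 other glutathione transferases Mgst3 fell, from 11.7 to 6.33 CPM, while the abundant microsomal Mgst1 was not called (2539 and 2721 CPM).

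Of 13 receptors and regulators, 5 rose in liver and none fell (all genes 4.46% up and 9.52% down). These were Nr1i3 (CAR) from 170 to 406 CPM, Ppara from 145 to 275 CPM, Hnf4a from 619.9 to 964 CPM, Nr1i2 (PXR) from 64.8 to 95.3 CPM and Cebpb from 39.6 to 80.0 CPM. The messengers of NRF2 (Nfe2l2, 61.0 and 53.5 CPM) and AHR (Ahr, 64.5 and 60.6 CPM) were not called. Of 9 genes known as NRF2 targets, 4 fell (Gclc, Gclm, Me1 from 214 to 92.0 CPM and Osgin1 from 178 to 32.2 CPM) and Srxn1 rose from 41.1 to 75.3 CPM. Nqo1 was not called at 7.42 and 7.89 CPM. Of 6 AHR targets, Cyp1a2 fell from 597 to 195 CPM and Tiparp from 10.2 to 7.13 CPM, and Cyp1b1 was the list's gene higher in fasting across tissues (log2 fold change 1.07, SE 0.16, edgeR quasi-likelihood test, adjusted p = 0.0125). Cyp1a1 of the same list went the other way without passing (log2 fold change -1.08, SE 0.26, adjusted p = 0.0608). The counts on these lists were not tested against other genes.

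White adipose tissue had 9 members up of 50 with a count (all genes 13.2%) and 4 down (all genes 5.84%). With TMM factors, which moved the median log2 fold change of all genes from 0.07 to -0.04, 7 were up and 5 down. The rises of Sult1a1 (0.48) and Ugt1a2 (0.91) then no longer passed, that of Ugt1a2 on its p-value and not on its size. The largest rises were in SULT and Gstm genes. Sult1c2 rose from 6 counts (0.258 CPM) to 403 counts (14.7 CPM), a ratio of 57.0 (interval 26.0 to 156). Gstm7 rose from 6.18 to 95.0 CPM (ratio 15.4, interval 13.0 to 18.3), Sult1d1 from 1.16 to 11.9 CPM (ratio 10.3), Gstm5 from 28.0 to 210.2 CPM (ratio 7.52) and Gstm6 from 4.08 to 30.2 CPM (ratio 7.41). Gstm5, Gstm7 and Gstm6 are neighbours at one end of the Gstm cluster, and the other 4 genes of the cluster were not called, with Gstm1 at 267 and 373 CPM and Gstm2 at 91.0 and 99.8 CPM.

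The same libraries differed in genes of other cell types. A list of 8 motile cilia genes, drawn up after these values were seen, summed to 9.02 CPM in the fed and 449 CPM in the fasting white adipose library, with 8 of 8 higher in fasting and none at 0 in either. Foxj1, the regulator of motile cilia, went from 1.76 to 126 CPM and Dnah5, a ciliary dynein, from 3.26 to 195 CPM. A list of 8 genes of absorptive epithelium, also drawn up then, summed to 56.4 and 1043 CPM, again with 8 of 8 higher, and Lrp2 (megalin) went from 34.9 to 710 CPM. The counts of 8 of 8 were fixed by how these lists were drawn up. Of the other marker lists, 8 proximal tubule genes summed to 72.0 and 754 CPM, most of it Lrp2, 4 enterocyte genes to 2.49 and 30.5 CPM, most of it Vil1, 5 epididymis genes to 10.7 and 0.948 CPM, 4 B cell genes to 344 and 80.7 CPM and 4 mesothelial genes to 171 and 203 CPM. A list of 6 adipocyte genes summed to 20235 and 16766 CPM. In other tissues the cilia list summed to between 1.36 and 10.2 CPM, lung excepted (446 and 489 CPM). The absorptive epithelium list was less particular, with 10516 and 9423 CPM in kidney, 921 and 775 CPM in lung and 466 and 403 CPM in liver. Its name therefore does not fix a cell type. The part of these lists in the rises of Gstm5, Gstm6, Gstm7, Sult1c2 and Sult1d1 was not tested.

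**Figure D5:**
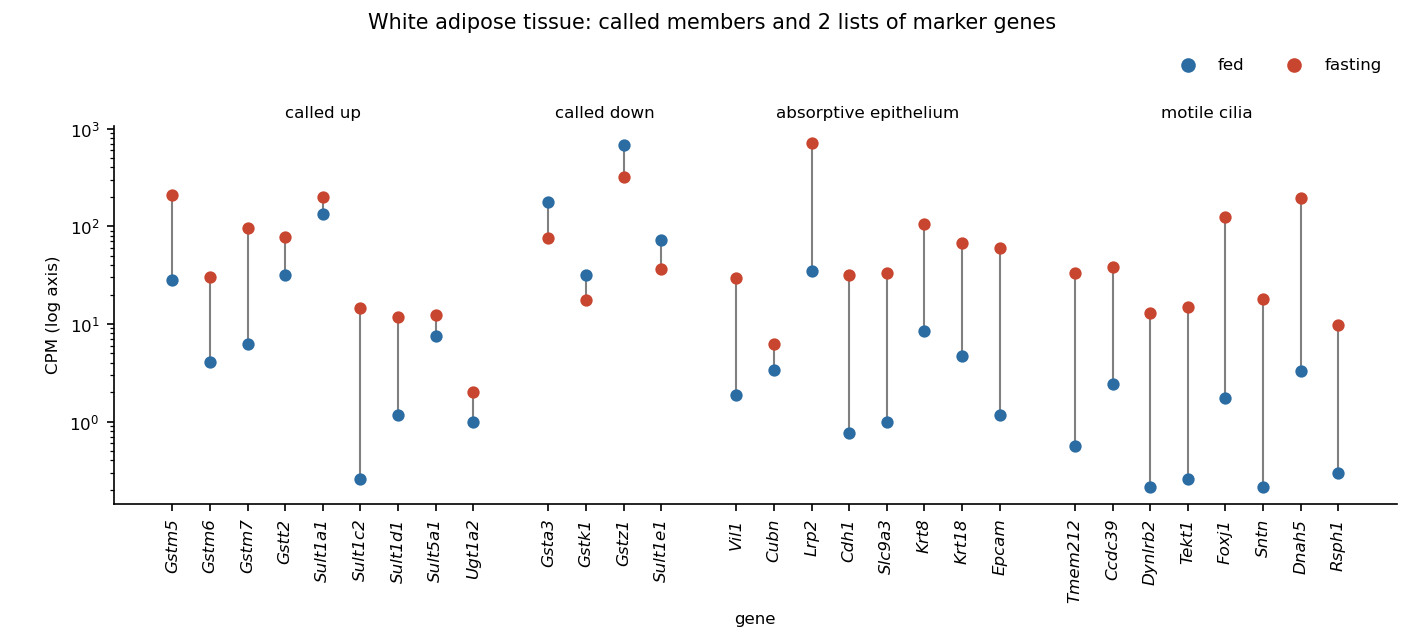
CPM (log axis) in the fed (blue) and fasting (red) white adipose library for the 9 members called up, the 4 called down and the genes of the absorptive epithelium and motile cilia lists. Both lists were drawn up after these values were seen, which fixed that all 16 of their genes lie higher in the fasting library. Gstm5, Gstm6, Gstm7, Sult1c2 and Sult1d1 are among the 9 members called up.

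The 4 falls in white adipose tissue were of other genes. Gsta3 fell from 176 to 76.7 CPM (ratio 0.437, interval 0.414 to 0.461), Gstz1 from 675 to 317 CPM (ratio 0.469, interval 0.457 to 0.481), Sult1e1 from 72.8 to 36.4 CPM (ratio 0.501, interval 0.462 to 0.542) and Gstk1 from 31.6 to 17.8 CPM (ratio 0.561). Sult1e1 lies next to Sult1d1 on chromosome 5, and these neighbours went in opposite directions in this tissue. Gstt2, Sult1a1, Sult5a1 and Ugt1a2 made up the rest of the rises.

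Kidney had 10 members up of 50 with a count (all genes 2.77%) and 5 down (all genes 3.93%). With TMM factors 10 were up and 2 down, the falls of Ugt2b38 (log2 fold change -0.47), Gstm7 (-0.44) and Ugt2a3 (-0.94) no longer passing. The call of Ugt2a3 was lost on its p-value and not on its size. Sult1d1, the leading SULT gene of kidney, rose from 618 to 931 CPM (ratio 1.51, interval 1.47 to 1.54). Gsta2 rose from 121 to 177 CPM (ratio 1.46) and Gstt2 from 144 to 269 CPM (ratio 1.87). Among the UGT genes Ugt2b38 fell from 809 to 553 CPM (ratio 0.683, interval 0.669 to 0.699) and Ugt2b37 from 159.8 to 94.0 CPM (ratio 0.589, interval 0.559 to 0.620). Ugt2b5 fell from 6.42 to 1.86 CPM, a larger relative fall than that of Ugt2b38. These genes share part of their sequence, and its part in the Ugt2b5 fall was not tested. Ugt3a2, Ugt3a1 (229.6 and 281 CPM) and Ugt1a7c were not called. Sult1a1 rose from 15.2 to 43.1 CPM. The other 6 rises were of members under 10 CPM, named here after their values were seen: Ugt1a10 from 22 to 113 counts, Ugt1a1 from 28 to 90, Ugt1a6a from 69 to 161, Ugt1a5 from 41 to 83, Ugt1a8 from 0 to 10 and Gstp3 from 4 to 20. These Ugt1a genes share exons with each other and with Ugt1a7c, which had 7804 counts in the fasting kidney library.

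In lung, 5 of 53 members with a count were up (all genes 2.68%) and 1 was down (all genes 6.49%), and with TMM factors 7 were up, Gstp2 and Gsto1 being added. Besides Sult1a1, Gsta3 rose from 122 to 204 CPM (ratio 1.67, interval 1.61 to 1.74), Sult5a1 from 9.08 to 19.8 CPM (ratio 2.18, interval 1.89 to 2.51) and Sult1d1 from 24.6 to 41.8 CPM (ratio 1.70, interval 1.55 to 1.86). The summed SULT level of lung went from 76.5 to 225 CPM. In the same libraries 5 cardiomyocyte genes summed to 968 CPM fed and 483 CPM fasting, 4 B cell genes to 300.05 and 154 CPM and 8 proximal tubule genes, mostly Lrp2, to 355 and 208 CPM, and their part in the lung calls was not tested. Sult1b1 (3 and 17 counts) and Ugt2b36 (7 and 0 counts) were the other calls.

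Heart had 6 members up of 48 with a count (all genes 4.33%) and 0 down (all genes 5.8%), and with TMM factors 9 were up, Gsta1, Gsta4 and Gsto1 being added. Gstm1 rose from 164 to 246 CPM (interval of the ratio 1.43 to 1.58) and Gsta3 from 8.31 to 12.0 CPM (ratio 1.44), beside Sult1a1 and Gstt2. Ugt2b34 (4 and 14 counts) and Ugt2b36 (2 and 13 counts) were also called, and in these libraries 8 hepatocyte genes summed to 33.5 CPM fed and 112 CPM fasting (8 of 8 with counts in both). The 6 adipocyte genes summed to 374 and 832 CPM there, nearly all of it Fabp4. The part of either list in the heart calls was not tested.

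Brown adipose tissue had 4 members up of 47 (all genes 5.39%) and 1 down (all genes 7.58%). The rises were of Gstp3 (11 and 34 counts), Sult1a1, Sult5a1 (24 and 41 counts) and Gstt2, and Gstt1 fell from 18.5 to 12.6 CPM (ratio 0.680). In the brown adipose libraries 5 fast muscle genes summed to 2220 CPM fed and 1039 CPM fasting, and their part in these calls was not tested. Muscle had 3 up of 45 (all genes 4.42%), Sult1a1, Gstt2 and Sult5a1, and 2 down (all genes 9.39%), Gsta4 (9.30 and 5.85 CPM) and Sult2a8 (29 and 16 counts). With TMM factors 3 were up and 1 down, the fall of Sult2a8 (log2 fold change -1.14) no longer passing on its p-value. In the muscle libraries the hepatocyte genes summed to 138 CPM fed and 104 CPM fasting, and their part in the Sult2a8 counts was not tested. Spleen had 1 up of 50 (all genes 2.31%), Sult1a1, and 2 down (all genes 1.62%), Sult2a8 (30 and 15 counts) and Sult2b1 (12 and 3 counts). The hepatocyte genes summed to 163 and 152 CPM in the spleen libraries, and their part in the Sult2a8 counts there was not tested. In spleen 4 erythroid genes summed to 2961 CPM fed and 7057 CPM fasting and the pancreatic acinar genes to 599.7 and 11.8 CPM, and their part in the spleen calls was not tested.

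Between tissues, 12 members were called in both directions, of which 5 had 10 CPM in a library of each of a pair of tissues with opposite calls. Of these 5, Gsta3 was called down in liver and white adipose tissue and up in lung and heart, Gstm1 down in liver and up in heart, Gsta2 down in liver and up in kidney, and Gstm6 and Gstm7 down in liver and up in white adipose tissue (Gstm7 also down in kidney, though not with TMM factors). The other 7 rest on lower levels in at least 1 of the tissues. Gstm5 (172 and 98 counts in liver) and Sult1c2 (97 and 43 counts in liver) were down in liver and up in white adipose tissue, and Sult1e1 the reverse. Ugt1a5 was down in liver and up in kidney, Gstp3 down in liver and up in kidney and brown adipose tissue, Ugt2b34 down in liver and up in heart, and Ugt2b36 down in liver and lung and up in heart. These differences between tissues were not tested, since each rests on 1 library per treatment.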

How the data were processed

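The authors trimmed paired-end reads of 100 bases from strand-specific libraries with fastp 0.23.2 (FastQC 0.11.8), mapped the trimmed reads by HISAT2 2.2.1.0 (genome GRCm38) and ran featureCounts of Subread 2.0 on GENCODE M24 genes. The deposited values are raw counts per gene. Whether reads or pairs were counted, the strand setting and the handling of reads with several matches are not given in the sources used here. Of 55385 gene IDs, 55144 matched GENCODE M21 of the same build without their version. CPM was taken on library totals. Within a tissue, Fisher's exact test compared libraries, with 0.01 CPM added for log2 ratios. Across tissues edgeR 4.0.16 (TMM, filterByExpr, quasi-likelihood test, 7 residual degrees of freedom, Benjamini-Hochberg adjustment) was used, and the scripts were tested on simulated data. The members and gene lists were chosen with earlier results of these data known. Named genes were, per family, the 3 highest per kilobase in each tissue, and, per tissue, up to 4 called members at 10 CPM with the largest rise and up to 4 with the largest fall, members past the threshold across tissues or called in opposite directions, and those with no count. Others were named after their values were seen. Alternatives were other scalings, filters, pseudocounts, thresholds, the DESeq2 1.42.0 Wald test, an assumed spread and left-out libraries. Total counts set the counting intervals, which leave out the spread between mice.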

Additional observations from a re-analysis of the deposited data

Results flagged for a closer look

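In 5 of the 12 members called in both directions, the calls in liver and another tissue were opposite and the member had 10 CPM in a library of each. Gstm7 was 0.45 of its fed level in liver and 15.4 times it in white adipose tissue, a difference in log2 fold change of 5.10, and for Gstm6 in the same tissues it was 4.79. Gsta3 in lung against liver differed by 2.48, Gstm1 in heart against liver by 1.74 and Gsta2 in kidney against liver by 1.57. With 1 library per tissue and treatment, none of these differences was tested. The white adipose values stand beside the higher levels of the genes listed for motile cilia and absorptive epithelium in the fasting library of that tissue. The part of those genes was not tested.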

How the results depend on the processing

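No paired analysis was possible because the labels give no replicate numbers and each tissue and treatment has 1 library; the fit across tissues already pairs the libraries by tissue. The within-tissue calls rest on counting error, and a spread between mice was put in by assumption. With an assumed coefficient of variation of 0.2, the members called went from 29 to 9 in liver, 13 to 8 in white adipose, 15 to 5 in kidney, 6 to 2 in lung, 5 to 2 in brown adipose, 6 to 1 in heart, 3 to 1 in spleen and 5 to 0 in muscle. With 0.4 they went to 2 in liver, 5 in white adipose and 0 in the other 6 tissues. Across tissues, members higher in fasting went from 2 to 5 by the DESeq2 Wald test (all genes from 243 of 23580 to 844 of 16234), to 4 with a filter on the treatment groups, chosen after seeing the data (400 of 17296), to 0 without the tissue block, both on the same genes (chosen after seeing the data; all genes 0 higher) and with the filter that the smaller model sets (all genes 0 higher and 1 lower of 17296), and lay between 1 and 3 with each tissue left out, the 1 being without brown adipose tissue. Members lower in fasting went from 0 to 1 (Gstm4) by DESeq2 (all genes from 198 to 988). The adjusted p of Sult1a1 with a tissue left out lay between 0.000462 and 0.0227. Scaling on library totals alone gave 12 members higher in white adipose, 5 in lung, 2 in spleen and 1 in muscle. A log2 difference above 1 gave 17 in white adipose, 6 in lung, 6 in heart and 4 in brown adipose. With a library of the tissue left out, members higher were 1 to 3 in heart (1 without the fasting library), 1 to 2 in muscle (1 without the fed library) and 1 to 2 in spleen (2 without the fasting library), and members higher in kidney than in liver were 5 to 9 (5 without the fasting liver library). No call turned direction under any alternative run. Of the 24 sums over a family in a tissue, 4 with a log2 ratio within 0.1 of 0 turned with TMM factors, that of SULT genes in liver going from -0.10 to 0.02.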
